A study of Cucumis sativus with 25 samples.

Results

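The miRNA n-mir153 of cucumber (Cucumis sativus) and the 7 genes named by the study as its responsive targets were followed through 4 temperature and photoperiod treatments. The n stands for the miRNAs that the study could not place in a known family. The members were chosen by name, as 1 of 249 miRNAs and 7 of 21221 genes in the tables. Shoot apical tissue was cut from chamber-grown seedlings of the inbred line 9930 (Chinese long), with many apices in each replicate. HL plants grew at 28 °C for 16 h of light and 25 °C for 8 h of dark, HS plants at the same temperatures with 8 h of light and 16 h of dark, LL plants at 20 °C for 16 h of light and 15 °C for 8 h of dark, and LS plants at these low temperatures with 8 h of light and 16 h of dark. Each treatment had 3 small RNA and 3 mRNA libraries, and all treatments shared the genotype and the tissue. The small RNA libraries held 16634520–17659346 clean reads, of which 609415–1551482 were miRNA tags.

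Plant miRNAs are cut from a hairpin in a longer transcript and loaded onto an Argonaute protein. They pair with mRNAs of near-complete complementarity, which are then cut opposite the middle of the miRNA or held back from translation. In the shoot apex such pairs are known for setting the juvenile phase, organ boundaries and flowering. Ethylene, whose signal ends in transcription factors such as one of the 7 targets, is the main hormone of female flower formation in cucumber.

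The sequence of n-mir153 is a short repeat, and it is shown because this repeat is what other miRNAs in the table share. It has 21 bases, of which 19 are A or G and 0 are C, and holds 5 GAA triplets. The seed, bases 2 to 8, is in capitals in this miRNA and in csa-miR1886, the only other of the 249 miRNAs with the same seed.
n-mir153: tGAAGAAGaagaagaagatga
csa-miR1886: tGAAGAAGtagatgaagagtc

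With other seeds, 2 more miRNAs shared a run of at least 10 bases with n-mir153, which stands in capitals. The run was 13 bases long in n-mir219 and 14 bases long in n-mir225. The motif GAAGAAGAA, searched on the miRNA strand, was in 3 of 249 miRNAs (1.2%), which were n-mir153 and this pair.
n-mir219: cgAGAAGAAGAAGAAtgacataa
n-mir225: ttAGAAGAAGAAGAAGgacacaa

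The precursor lies on the plus strand of chromosome 1 at chr1:4900562-4900641 (genome of cucumber line 9930, v20), in the third intron of Csa1M044860.1, an alcohol dehydrogenase-like gene. The mature miRNA, in capitals, took up bases 11 to 31 of the 80-base hairpin.
n-mir153 precursor: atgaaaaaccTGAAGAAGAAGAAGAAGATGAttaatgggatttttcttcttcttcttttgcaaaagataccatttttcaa

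Folded with RNAfold, the hairpin had a minimum free energy of -21.60 kcal/mol, and 17 of the 21 mature bases paired with bases 42 to 58, a run rich in TTC. The perfect complement of the miRNA is the site that a target would carry, with the 10 bases 3′ of the usual cut position in capitals.
Complement of n-mir153: tcatcttcttcTTCTTCTTCA

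The deposited degradome table, from 1 library of the mixed treatments, held 5359 tags of 47 bases with 263397 copies, all annotated as matches to other RNA records. Cut sites on the 7 mRNAs could not be looked for among such tags and were not analysed here.

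n-mir153 was rare, and no comparison passed the threshold of the study (over 2-fold and unadjusted p under 0.001). Of the 248 miRNAs tested, 4.03% passed it in HS vs LS, as did 4.03% in HL vs LL, 6.85% in HL vs LS, 2.42% in HS vs LL, 0.806% in HL vs HS, 0% in LL vs LS, 7.26% for temperature, 0.806% for photoperiod and 0% for the interaction. n-mir153 had 80 tags in all 12 libraries together, which was 0.000712% of the 11238643 miRNA tags. It ranked 190th of 249 miRNAs, whose median was 800 tags. In 4 of 12 libraries it had at most 3 tags.

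The tags in replicates 1, 2 and 3 were 5, 1 and 2 in HL and 12, 10 and 10 in LL. They were 7, 3 and 8 in HS and 16, 4 and 2 in LS. The LL libraries all lay above the HL and HS libraries, and how many other miRNAs separated in this way was not examined. LS spanned almost the whole range, since replicate 1 alone held 16 of its 22 tags. LS replicate 1 also held the most miRNA tags of any library (1551482, against 678542 and 943026 in LS replicates 2 and 3). The clean reads of LS replicates 1, 2 and 3 were 17298349, 16943422 and 16837221, so scaling to clean reads leaves this difference in place. In LS the variance of the counts was 7.82 times their mean, against 0.125 times in LL, where counting error alone gives a ratio near unity.

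**Figure D1:**
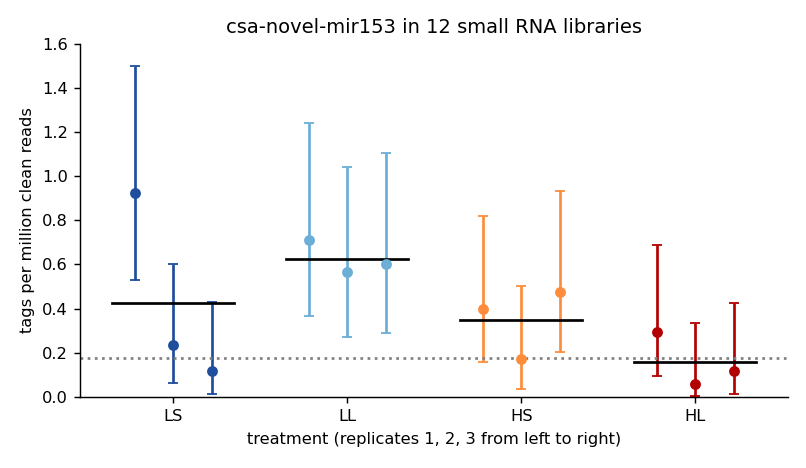
The y axis gives n-mir153 in CPM (tag counts scaled to the clean reads of each library) and the x axis the 4 treatments. Points are libraries with exact 95% Poisson intervals, which cover counting error only, black lines are means, and the dotted line is the mean floor of 3 tags. The 3 LL libraries sit at 0.566–0.711 CPM, and the LS libraries spread from 0.119 to 0.925.

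In CPM, the mean was 0.158 ± 0.123 in HL and 0.626 ± 0.0758 in LL, against 0.348 ± 0.157 in HS and 0.427 ± 0.436 in LS (SD, n = 3 each). The HL mean lay below the floor of 3 tags (0.170–0.180 CPM per library), so fold changes against HL rest on 8 tags. The log2 change in HL vs LL was -1.94 (SE 0.71) with a Benjamini-Hochberg adjusted p = 0.108 in edgeR's quasi-likelihood test. Its unadjusted p was under 0.05, as for 21.4% of the tested miRNAs.

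In short days the log2 change of n-mir153 was smaller than its error. It was -0.30 in HS vs LS (SE 0.65, edgeR adjusted p = 0.881), became 0.94 without LS replicate 1 and 0.02 without HS replicate 2, and reached -0.74 without LS replicate 3. The mean over both photoperiods was -1.12 (SE 0.49, edgeR adjusted p = 0.126), with an unadjusted p under 0.05, as for 32.3% of miRNAs in this contrast. Without LS replicate 1 it was -0.50 (edgeR adjusted p = 0.515). With TMM factors on the library sizes it was -0.95 (edgeR adjusted p = 0.189), with -0.06 in short days and -1.83 in long days. The difference between the temperature changes in long and short days, tested as an interaction, was -1.63 (SE 0.98, edgeR adjusted p = 0.937), and -2.87 without LS replicate 1 (edgeR adjusted p = 0.397).

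Long against short days gave log2 changes of -1.10 (SE 0.78) at high and 0.54 (SE 0.59) at low temperature, with edgeR adjusted p of 0.709 and 0.999. At high temperature the change was -1.88 without HL replicate 1 and -0.73 without HL replicate 2. At low temperature it was 1.78 without LS replicate 1, 0.25 without LS replicate 2 and 0.10 without LS replicate 3. None of these was called.

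The miRNAs of like sequence were far more abundant. csa-miR1886, with the same seed, had 191–379 tags per library and a log2 change with temperature of -0.37 (SE 0.15, edgeR adjusted p = 0.106). n-mir219 had 518–957 tags, with 0.25 (SE 0.12, edgeR adjusted p = 0.187).

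n-mir225 had 204–631 tags and a lower mean at high temperature. Its log2 change of -0.86 had SE 0.16 and an edgeR adjusted p = 0.00151, but was under 2-fold. Its means were 15.7 ± 4.21 CPM in HL and 14.8 ± 1.34 in HS, against 26.2 ± 3.71 in LL and 29.4 ± 6.68 in LS (SD, n = 3). Over the 12 libraries, the miRNAs whose log2(CPM + 1) was most like that of n-mir153 were n-mir101 (r = 0.842, 72 tags in all) and csa-miR3512 (r = 0.841, 1169 tags). Highest of many, these r are a description. Both miRNAs of each pair come from the same libraries, which differed in their miRNA tags and in temperature.

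The gene holding the precursor was not called in any comparison. Csa1M044860.1 had FPKM values (fragments per kilobase of transcript, scaled to the mapped fragments of the library) of 12.3, 7.49 and 9.39 in HL and 11.2, 10.2 and 13.3 in LL, and of 13.8, 11.6 and 10.0 in HS and 7.59, 8.64 and 8.68 in LS. All HS and all LL libraries lay above all LS libraries, as for 20.1% of all genes in HS vs LS and 6.28% in LL vs LS. The ratio of means in HS vs LS was 1.42 (limma adjusted p = 0.111), and that of high to low temperature was 1.08 (limma adjusted p = 0.61). Over the 12 matched libraries, r between its log2(FPKM + 1) and the miRNA was 0.19 (permutation p = 0.547) and rho was 0.308 (permutation p = 0.328). The r was 0.63 without the 2 libraries farthest from the median of the miRNA, LS replicate 1 and LL replicate 1.

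Of the 7 targets, 6 passed the test in at least 1 of 6 pairwise comparisons, all of them between temperatures, and 0 in either comparison of photoperiods. A target was called where the mean FPKM of the treatments differed by more than 2-fold. In addition, limma on log2(FPKM + 1) had to give an adjusted p under 0.05. Of the 18655 tested genes, 7.15% were called at least once. The study used the same fold but, in place of an adjusted p, a cut-off on a probability. A target not called here can thus pass there. The study chose the targets as differentially expressed in these same libraries, so neither their count nor their p is independent evidence. All 7 passed the filter on low values.

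In HS vs LS, 3 of 7 targets were called, 2 higher and 1 lower (4.3% of all genes were called, 3.1% higher and 1.2% lower). In HL vs LL, 3 were called, again 2 higher and 1 lower (2.12% of all genes, 1.3% higher and 0.82% lower). In HL vs LS 3 were called (4.14%) and in HS vs LL 1 (2.91%), whereas 0 were called in HL vs HS (0.541%) and LL vs LS (0.0322%). The same 12 libraries entered these comparisons, so they are not independent.

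The median log2 change of the 7 targets was 0.64 in HS vs LS, against 0.03 over all genes, and 0.13 in HL vs LL, against 0.00. For temperature over both photoperiods 2 of 7 targets were called (3.95% of all genes). With the adjusted p alone 6 of 7 passed, where 24.1% of all genes did.

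**Figure D2:**
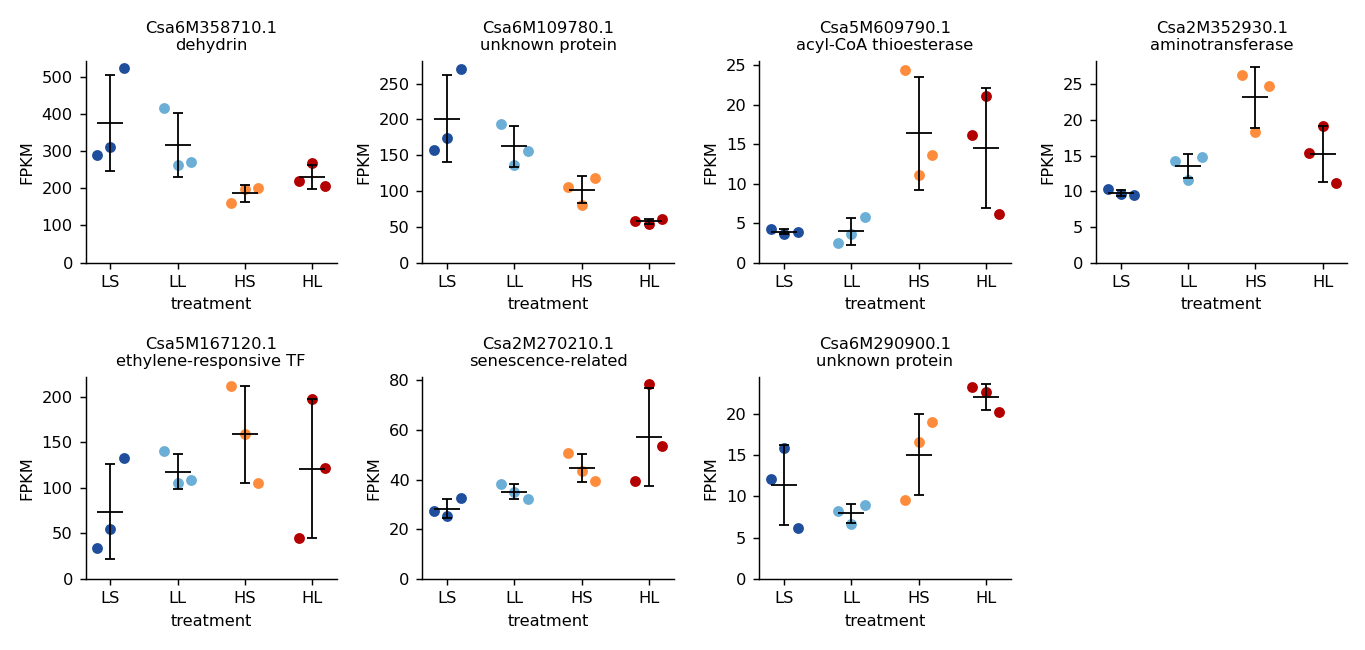
Each panel gives the FPKM of 1 target on the y axis, from 0, by treatment on the x axis. Points are libraries and black marks are means with SD (n = 3). Csa5M609790.1, Csa2M270210.1 and Csa6M109780.1 show no overlap between the 6 high and the 6 low temperature libraries. Of all genes, 5.58% lay higher at high temperature without overlap and 4.55% lower.

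The targets differed in level. The dehydrin gene had a mean of 277 FPKM, above 97.4% of tested genes, the unknown protein gene Csa6M109780.1 had 131 and the ethylene-responsive factor 118. The others had 41.3 (senescence-related), 15.4 (aminotransferase), 14.1 (Csa6M290900.1) and 9.69 FPKM (thioesterase, above 30.6% of genes).

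Csa5M167120.1, an ethylene-responsive transcription factor of the study's annotation, belongs to a family that switches genes in answer to ethylene and stress. Its FPKM was 44.3, 197 and 121 in HL and 139.69, 105 and 108 in LL, and 211, 159 and 105 in HS and 33.5, 54.9 and 133 in LS. Replicate 1 was the lowest library of HL and of LS, and high and low temperature libraries overlapped in both photoperiods. Its SD within treatments was 0.785 on the log2 scale, larger than in 97.1% of genes (median 0.195).

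The ratio of means of Csa5M167120.1 was 2.15 in HS vs LS, with a log2 change of 1.27 (SE 0.51, limma adjusted p = 0.109), so it was not called. Without LS replicate 3 the change was 1.80 (limma adjusted p = 0.0327). In HL vs LL the ratio of means was 1.03, whereas the log2 change was -0.19 (SE 0.51, limma adjusted p = 0.88). Without HL replicate 1 the log2 change was 0.41. The difference between the photoperiods was -1.46 (SE 0.73, limma adjusted p = 0.612).

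Csa2M270210.1, annotated as a senescence-related protein, had a higher mean at high temperature in each photoperiod, by less than 2-fold. Its FPKM was 39.5, 78.6 and 53.4 in HL and 38.1, 35.01 and 32.2 in LL, and 50.8, 43.5 and 39.5 in HS and 27.1, 25.2 and 32.5 in LS. The lowest high temperature library (39.45) stood just above the highest low temperature library (38.11), a separation seen for 5.58% of all genes in this direction. The ratio of means was 1.58 in HS vs LS (limma adjusted p = 0.04) and 1.63 in HL vs LL (limma adjusted p = 0.0861).

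Only HL vs LS, which differ in both factors, gave a call for Csa2M270210.1, with a ratio of 2.02 and a log2 change of 0.94 (SE 0.20, limma adjusted p = 0.0088). That ratio is at the threshold, and the call was lost without HL replicate 2 (log2 change 0.69), LS replicate 1 (0.92) or LS replicate 2 (0.87), and with FPKM scaled to equal medians (0.91).

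Csa5M609790.1, an acyl-CoA thioesterase, of a class of enzymes that release fatty acids from coenzyme A, had the largest ratio of the 7 targets in both photoperiods. Its FPKM was 16.2, 21.1 and 6.15 in HL and 24.5, 11.1 and 13.6 in HS. It was 2.43, 3.67 and 5.76 in LL and 4.24, 3.66 and 3.91 in LS. All 6 high temperature libraries lay above all 6 at low temperature, as for 5.58% of all genes. However, HL replicate 3 (6.15) and LL replicate 3 (5.76) were close.

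The ratio of Csa5M609790.1 in HS vs LS was 4.16, with a log2 change of 1.74 (SE 0.39, limma adjusted p = 0.0101). In HL vs LL it was 3.67, with 1.55 (SE 0.39, limma adjusted p = 0.0394). The call in HL vs LL was lost without HL replicate 1 (adjusted p = 0.127), HL replicate 2 (0.124), LL replicate 1 (0.125) or LL replicate 2 (0.11), and with no filter on low values (0.0538). Over both photoperiods the log2 change was 1.65 (SE 0.28, limma adjusted p = 0.00125). Its log2(FPKM + 1) was most like that of Csa2M375780.1 (r = 0.954) and Csa4M279810.1 (r = 0.951) over the 12 libraries.

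Csa2M352930.1, an aminotransferase, of enzymes that move amino groups between amino and keto acids, rose with temperature in short days. Its FPKM was 26.3, 18.3 and 24.8 in HS and 10.3, 9.67 and 9.45 in LS, with no overlap (20.1% of all genes were higher without overlap in HS vs LS). It was 15.3, 19.1 and 11.2 in HL and 14.3, 11.6 and 14.8 in LL, where the treatments overlapped. The ratio was 2.36 in HS vs LS (log2 change 1.15, SE 0.19, limma adjusted p = 0.00175) and 1.12 in HL vs LL (log2 change 0.13, SE 0.19, limma adjusted p = 0.751).

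This difference between photoperiods for Csa2M352930.1 did not pass its own test, with an interaction of -1.02 (SE 0.26, limma adjusted p = 0.289). Of all genes, 0.0482% were called for the interaction. The LL libraries all lay above the LS libraries, as for 6.28% of all genes, with a ratio of 1.39 (limma adjusted p = 0.618).

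Csa6M358710.1, a dehydrin, one of the hydrophilic proteins that accumulate in plants under cold and drought, fell with temperature in short days. Its FPKM was 160.0, 199 and 201 in HS and 291, 311 and 525 in LS, which did not overlap (16% of all genes were lower without overlap). It was 219, 268 and 205 in HL and 416, 262 and 272 in LL, where HL replicate 2 (267.65) exceeded LL replicate 2 (261.96). LS replicate 3 and LL replicate 1 were the highest of their treatments by a wide margin.

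The ratio of Csa6M358710.1 in HS vs LS was 0.497, with a log2 change of -0.96 (SE 0.22, limma adjusted p = 0.0111). It was called narrowly, and the call was lost without HS replicate 1 (log2 change -0.85, limma adjusted p = 0.0506) or LS replicate 3 (-0.69, limma adjusted p = 0.0331). In HL vs LL the ratio was 0.728 (limma adjusted p = 0.299). Over both photoperiods it was 0.603 (limma adjusted p = 0.00685), which is under 2-fold and so was not called.

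Csa6M109780.1, a protein of unknown function, gave the smallest p for temperature among the 7. Its FPKM was 58.1, 53.5 and 60.7 in HL and 194, 137 and 157 in LL, and 106, 81.0 and 119 in HS and 158, 174 and 271 in LS. The order HL, HS and then the low temperature treatments had no overlap (10.9% of all genes were lower without overlap in HL vs HS), and the highest high temperature library (118.9) lay below the lowest at low temperature (136.65), as for 4.55% of all genes.

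The ratio of Csa6M109780.1 in HL vs LL was 0.354, with a log2 change of -1.47 (SE 0.19, limma adjusted p = 0.000746). In HS vs LS it was 0.506 (log2 change -0.95, SE 0.19, limma adjusted p = 0.0058), just short of 2-fold and so not called, and it was called with FPKM scaled to equal medians (log2 change -1.05) and without HS replicate 1 (-0.99), HS replicate 3 (-1.07), LS replicate 1 (-1.10) or LS replicate 2 (-1.03). Over both photoperiods the log2 change was -1.21 (SE 0.14, limma adjusted p = 7.92e-05). HL lay below HS with a ratio of 0.564, although the adjusted p was 0.0724 in limma.

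Csa6M290900.1, also of unknown function, rose with temperature in long days. Its FPKM was 23.2, 22.6 and 20.2 in HL and 8.24, 6.70 and 8.93 in LL, with no overlap (12.7% of all genes were higher without overlap in HL vs LL). It was 9.55, 16.6 and 19.0 in HS and 12.1, 15.9 and 6.2 in LS, where the treatments overlapped. The ratio was 2.77 in HL vs LL (log2 change 1.37, SE 0.29, limma adjusted p = 0.017) and 1.32 in HS vs LS (log2 change 0.41, SE 0.29, limma adjusted p = 0.356).

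The call of Csa6M290900.1 in HL vs LL was lost without HL replicate 1 (limma adjusted p = 0.0567) or LL replicate 2 (0.0711). Over both photoperiods its ratio was 1.92 (limma adjusted p = 0.0078), and it passed 2-fold without HS replicate 1 (log2 change 1.03) or LS replicate 2 (1.02). Its difference between photoperiods was 0.96 (SE 0.41, limma adjusted p = 0.558). Without HL replicate 1 or LL replicate 2, only Csa6M109780.1 remained of the 3 targets called in HL vs LL.

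**Figure D3:**
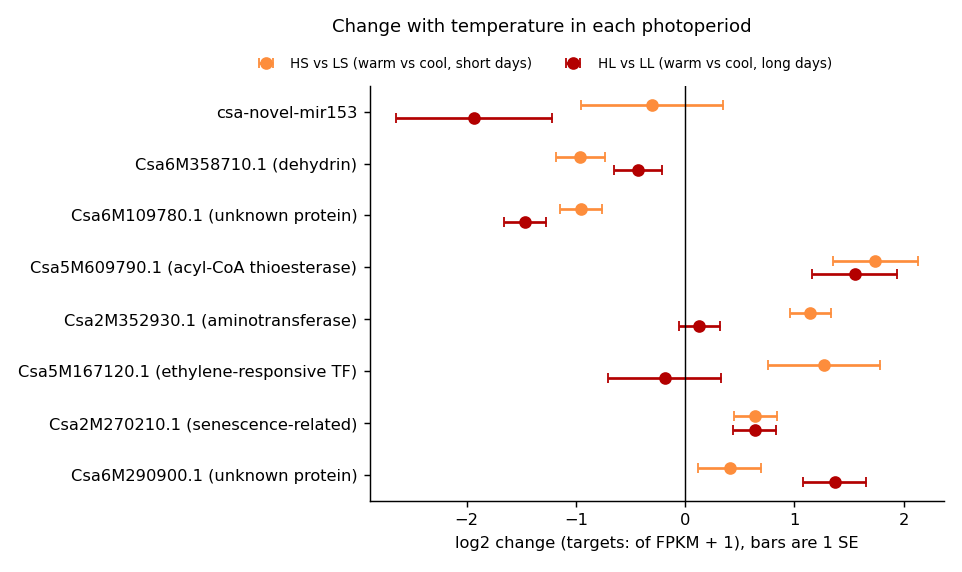
The x axis gives the log2 change from low to high temperature in short days (HS vs LS) and in long days (HL vs LL), with 1 SE, for the miRNA and the 7 targets on the y axis. The thioesterase lies at 1.74 and 1.55, whereas Csa6M109780.1 lies at -0.95 and -1.47 and the miRNA at -0.30 and -1.94.

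The targets did not vary as a single group. After the treatment means were removed, r over the 12 libraries was 0.863 between the ethylene-responsive factor and the senescence-related gene and 0.800 between the thioesterase and the aminotransferase. It was 0.683 between the dehydrin gene and Csa6M109780.1. Other pairs lay apart, as the ethylene-responsive factor and Csa6M290900.1 (r = -0.573), and all of these values share the libraries and are given as a description.

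The relation between the miRNA and each target was then examined over the 12 libraries, matched by treatment and replicate number. The study reports that both kinds of RNA came from the same samples. Whether equal replicate numbers mark the same sample was not checked, and the r values within treatments rest wholly on this match. The study reads the pairs as miRNA and target. It took the differentially expressed targets from those with cut sites in its degradome sequencing, a basis apart from expression that was not examined here. No target had an adjusted p under 0.05 for r or rho (permutation tests, Benjamini-Hochberg over 7 pairs). The study named 5 of the pairs for their opposite pattern in these data, so their signs are not independent evidence.

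The lowest value was that of the senescence-related Csa2M270210.1, with r = -0.527 (permutation p = 0.0764, adjusted p = 0.303) and rho = -0.552 (permutation p = 0.0666, adjusted p = 0.31). The 2 libraries farthest from the median of the miRNA were LS replicate 1 and LL replicate 1, its highest values and both at low temperature. Without them r was -0.441. Within the 6 high temperature libraries it was -0.701 (exact permutation p = 0.106), and within the 6 at low temperature 0.18 (exact permutation p = 0.731). The negative sign was thus not found within both temperatures.

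For Csa6M290900.1 r was -0.433 and rho -0.448 (permutation p = 0.16 and 0.148, adjusted 0.303 and 0.31), with -0.42 without the 2 farthest libraries and -0.462 and 0.119 within high and low temperature. For the ethylene-responsive factor Csa5M167120.1 r was -0.408 and rho -0.42 (permutation p = 0.187 and 0.177, adjusted 0.303 and 0.31), with -0.198 without those 2 and -0.254 and -0.323 within the temperatures. For the thioesterase Csa5M609790.1 r was -0.384 and rho -0.378 (permutation p = 0.217 and 0.23, adjusted 0.303 and 0.322), with -0.11 without those 2 and 0.311 and -0.00991 within the temperatures. Of these 3, the ethylene-responsive factor alone was negative in both temperatures.

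The aminotransferase Csa2M352930.1 had r = -0.0354 and rho = -0.021 (permutation p = 0.913 and 0.956, adjusted 0.913 and 0.956), with 0.241 without the 2 farthest libraries. Within the temperatures it was 0.644 at high and 0.537 at low temperature (exact permutation p = 0.174 and 0.265), so the sign within them was opposite to that over all libraries.

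The dehydrin Csa6M358710.1 had r = 0.0772 and rho = 0.182 (permutation p = 0.812 and 0.575, adjusted 0.913 and 0.67), with -0.265 without those 2 and -0.65 and -0.528 within high and low temperature. Csa6M109780.1 had r = 0.455 and rho = 0.483 (permutation p = 0.137 and 0.116, adjusted 0.303 and 0.31), with 0.321 without those 2. Its r was 0.827 within high temperature (exact permutation p = 0.0611) and -0.645 within low temperature (exact permutation p = 0.168), with opposite signs.

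**Figure D4:**
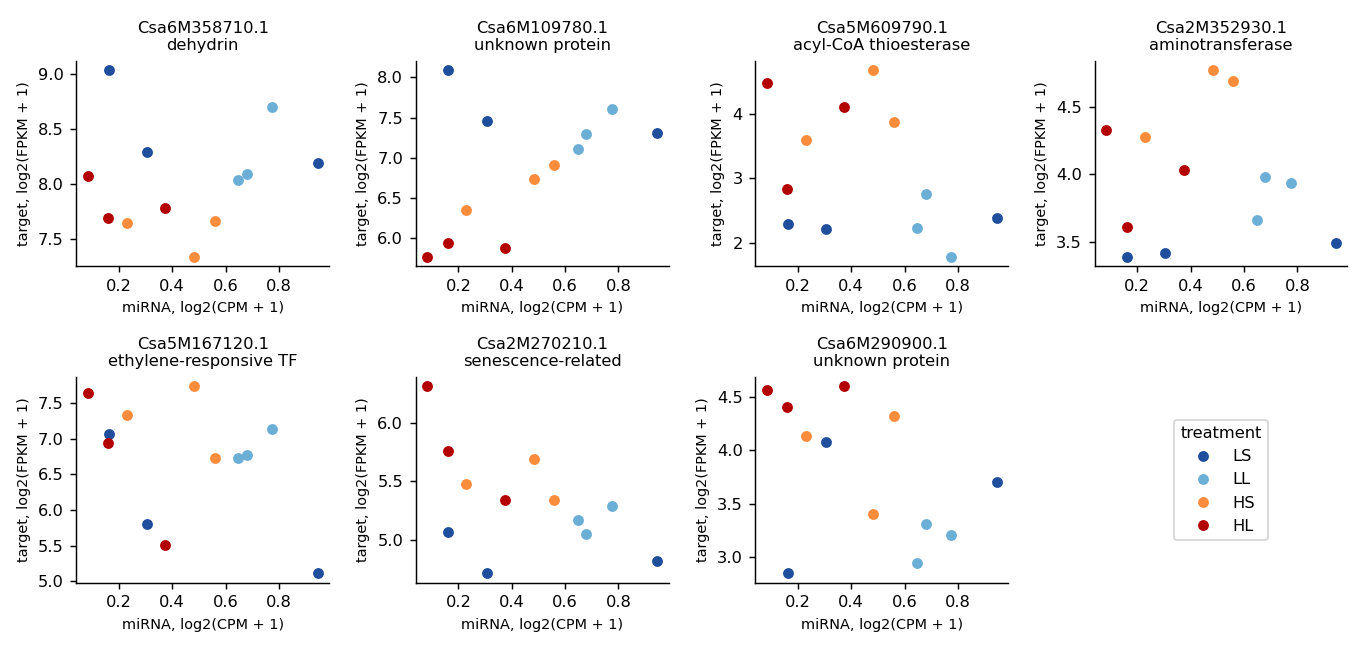
Each panel plots the log2(FPKM + 1) of 1 target on the y axis against the log2(CPM + 1) of n-mir153 on the x axis, with 1 point for each of 12 matched libraries, coloured by treatment. The r runs from -0.527 for Csa2M270210.1 to 0.455 for Csa6M109780.1, and LS replicate 1, at the right edge, lies apart from the other LS libraries.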

How the data were processed

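The miRNA table holds tag counts as deposited by the authors, who trimmed the reads, kept tags of miRNA size and summed those with up to 3 end mismatches per mature sequence. The mRNA table holds FPKM as the authors deposited them, from read pairs placed on the reference genes. The submitters' notes name Bowtie and RSEM. The degradome table holds deposited copy counts per tag.

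miRNAs with at least 10 counts over all libraries entered 1 edgeR 4.0.16 model (quasi-likelihood test), with the study's clean reads as library sizes. Genes with FPKM of at least 1 in 3 libraries were tested with limma 3.58.1 (trend) on log2(FPKM + 1), so fold changes of low genes are understated. Adjustment was by Benjamini-Hochberg over all features. DESeq2 1.42.0, TMM, other filters, pseudocounts and scalings, a replicate block and leaving out libraries were tried. Relations used 100000 permutations. RNAfold 2.7.2 folded the precursor. R 4.3.3 and Python ran the scripts, which were tested on simulated data. mRNA depth cannot be read from FPKM, but the study reports clean reads in a narrow range over the mRNA libraries.

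All 8 members were named, with the host gene, the miRNAs of the same seed or a shared run, and the features most like the members, given here for the miRNA and the thioesterase. Members and lists were chosen with earlier results of these data known. Of 21221 gene IDs, 0 matched the reference table used here (RefSeq, Cucumber_9930_V3), so planned lists of ethylene, dehydrin, thioesterase, aminotransferase, senescence and miRNA machinery genes and tissue markers could not be built, and the tissue was not checked against markers. Product names are the study's. No strand or paralog check was made.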

Additional observations from a re-analysis of the deposited data

How the results depend on the processing

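The calls rest on 3 libraries per treatment, and n-mir153 on 1–16 tags per library, which limits what could be detected. Leaving out 1 library, the log2 change of n-mir153 ranged from -0.74 to 0.94 in HS vs LS, from -0.67 to 0.34 for photoperiod, from -1.51 to -0.50 for temperature and from -2.87 to -1.20 for the interaction. Under the same omissions the log2 change ranged from -0.44 to 0.040 for Csa6M358710.1 in LL vs LS, from -0.66 to 0.41 and from -1.04 to 0.022 for Csa5M167120.1 in HL vs LL and HL vs HS, from -0.30 to 0.19 and from -0.57 to 0.24 for Csa5M609790.1 in LL vs LS and HL vs HS, and from -0.042 to 0.32 for Csa2M352930.1 in HL vs LL. The number of targets called in HL vs LL ranged from 1 to 3 (1 without HL replicate 1 or LL replicate 2), and in HL vs LS from 1 to 3 (1 without HL replicate 2 or LS replicate 1). Csa5M609790.1 was not called in HL vs LS without HL replicate 1 or 2 or any single LS replicate (limma adjusted p from 0.0524 to 0.0913), nor in HS vs LL without HS replicate 1 (0.0598). No other setting or omission reversed a target's temperature comparison.

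Taking deviations from the treatment means removes the differences between treatments and leaves only the match of replicate numbers, which was not checked. The relation with the miRNA then had r = -0.442 for Csa6M358710.1, -0.223 for Csa6M109780.1, 0.116 for Csa5M609790.1, 0.273 for Csa2M352930.1 and 0.265 for Csa6M290900.1. Each was opposite in sign to the value over all libraries, which was only 0.0772 for Csa6M358710.1 and -0.0354 for Csa2M352930.1. Exact permutation p within treatments ran from 0.28 to 0.773 for these genes. Why the signs differed was not tested. The r stayed negative for Csa5M167120.1 (r = -0.71, against -0.408 over all libraries, exact permutation p = 0.0679) and Csa2M270210.1 (r = -0.354, against -0.527, exact permutation p = 0.252). With a pseudocount of 0.1, r for Csa2M352930.1 was 0.0117. Leaving out 1 replicate number, r ranged from -0.202 to 0.39 for Csa6M358710.1 and from -0.435 to 0.168 for Csa2M352930.1.

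Same-numbered small RNA libraries of different treatments mostly deviated together (r from -0.0692 to 0.763, mean 0.259, 14 of 18 pairs over 0.1). The mRNA libraries did so hardly at all (r from -0.051 to 0.111, mean 0.0236, 1 of 18 pairs over 0.1). The main models of both kinds left the numbers out, although the small RNA libraries showed this shared deviation. With the replicate number as a block, n-mir153 had a log2 change of -1.99 in HL vs LL (edgeR adjusted p = 0.0446). Without the block the edgeR adjusted p was 0.108, and n-mir153 was called in neither fit. With the block, 2 targets were called in HL vs LL, and Csa5M609790.1 was not among them (limma adjusted p = 0.0609).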
